A study of Mus musculus with 12 samples.

Results

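The comparison set the caudal region of embryos of 3 neural tube mutants against that of wild-type embryos, to find genes whose RNA differs in the same direction in all 3 genotypes. The groups were beta-catenin cKO, Emg1 cKO, Vangl2 Lp/Lp and wild type, with 3 libraries each, at E10.5 (embryonic day). Each library held RNA from a pool of 4 to 7 embryos, so a library is a pool and not an animal. All 12 libraries of the series entered, 9 from mutants and 3 from wild type. A cKO is a conditional knockout, in which a recombinase deletes the gene in the cells that carry it; the sources used here do not give the driver, the deleted exons, the strain or the somite stage of the pools. Lp (loop-tail) is a missense allele of Vangl2, here homozygous. Per the series' design text, closure of the neural tube is impaired in all 3 mutants. Of 53342 genes in the table, 17848 had a TPM (transcript level scaled for transcript length and library depth) above 1 in at least 3 of the 12 libraries and were tested. A gene was counted as alike where it was called in the same direction in each of the 3 genotypes.

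The neural tube forms as the neural plate bends, its edges meet at the midline and the overlying surface ectoderm fuses. At the caudal end this happens while new neural and mesodermal tissue is still being added from the tail bud, and while neurons begin to leave the cell cycle further forward. Beta-catenin (Ctnnb1) is the transcriptional effector of canonical WNT signalling, Emg1 is a methyltransferase that takes part in building the small ribosomal subunit, and Vangl2 belongs to the core of planar cell polarity, the alignment of cells within a sheet. The 3 mutants therefore differ in the gene that is altered, and share a defect in closure.

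The genes altered in the mutants were not themselves alike. Emg1 (ENSMUSG00000004268) had 48.0, 46.5 and 43.4 TPM in Emg1 cKO, and 63.5 to 71.9 TPM in the other 6 mutant libraries, against 70.3, 70.9 and 80.5 TPM in wild type. The Emg1 cKO libraries lay below the rest, and the difference among the mutants was called (edgeR's quasi-likelihood test, adjusted p = 0.00035). Ctnnb1 had 861 ± 33 TPM over the 3 mutant genotypes and 811 ± 55 TPM in wild type (SD of 3 genotype means and of 3 libraries). In beta-catenin cKO alone it had 823 ± 14 TPM. There was no edgeR call in that genotype (log2 fold change -0.09 ± 0.05 SE, adjusted p = 0.20), so the count of the whole gene does not check that label. The log2 fold change comes from scaled counts, which are offset from TPM, and here the 2 differ in sign. Vangl2 was higher than wild type in the mutant mean (0.19 ± 0.05, adjusted p = 0.0071), with 74.9 to 91.3 TPM in the 9 mutant libraries against 67.9, 68.2 and 59.0 TPM in wild type. An amino acid change, as in Lp, need not alter the level of the RNA. Grhl2 and Grhl3, grainyhead-like factors that act in surface ectoderm, are taken up below with that tissue.

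The libraries held 32863562 to 38560969 counted reads in mutants and 34266067 to 46464596 in wild type. Wild-type libraries stood apart from all mutant libraries in more than gene-level calls. Between 16794 and 17115 genes lay above 1 TPM in mutants against 16143 to 16364 in wild type. The 10 most abundant genes held 7.3% to 8.17% of TPM in mutants and 8.23% to 8.62% in wild type. On the first principal component (28.1% of the variance) mutants lay at -14.5 to -0.2 and wild type at 22.8 to 30.6. The part of library make-up in any result below was not tested, and it cannot be told apart from genotype because it does not overlap between the groups. Posterior Hox genes, which mark the caudal trunk and tail, were present throughout, at a summed 752.5 to 1207 TPM in mutants and 1038 to 1048 TPM in wild type. Of the 16 tested, edgeR called 0 in the mutant mean, with 1 higher and 1 lower at an unadjusted p under 0.05. DESeq2 called 1 lower and limma on log2(TPM + 1) 1 higher, and 3 were lower without the Vangl2 Lp/Lp genotype. Vangl2 Lp/Lp replicate 1 stood apart, with a list median of -0.63 on the log2(CPM + 1) scale relative to the wild-type mean, against -0.27 to 0.13 in the other 8 mutant libraries and -0.07 to 0.07 in wild type.

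In the mean of the 3 mutant genotypes 1927 genes were higher than in wild type (10.8% of the genes tested) and 1985 were lower (11.1%). Counts within the gene lists below are to be read beside these shares, and no list was tested against them. The lower count was 1214 without wild type replicate 3. Single genotypes gave 2582 calls in beta-catenin cKO (14.5%, with 7.48% higher and 6.99% lower), 3880 in Emg1 cKO (21.7%, with 11.3% and 10.4%) and 1570 in Vangl2 Lp/Lp (8.8%, with 5.45% and 3.34%). Leaving out replicates 1, 2 and 3 of beta-catenin cKO left 1476, 1669 and 1436 calls in that genotype, and leaving out Vangl2 Lp/Lp replicate 1 left 719 in Vangl2 Lp/Lp. Genes alike in all 3 numbered 568 higher (3.18%) and 312 lower (1.75%), or 4.93% in all. The 3 single comparisons share the 3 wild-type libraries, so a deviation of those libraries enters all 3 of them, and the alike genes were chosen from these same comparisons. At the edge of the rule, the largest of the 3 adjusted p values was 0.04995 for Psmb2, which was counted. Of the 880 alike genes, 93 also differed among the mutants in size (adjusted p under 0.05), against 6.32% of all genes tested.

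The higher and the lower alike genes were unlike in size and level. The higher ones had a median of 6.37 TPM in wild type and a median log2 fold change of 0.70; 178 of 568 were at least 2-fold higher and 226 were higher by under 1.5-fold. The lower ones had a median of 108 TPM in wild type and a median log2 fold change of -0.30; 13 of 312 were at least 2-fold lower and 276 were lower by under 1.5-fold. Over all genes tested the wild-type median was 13.9 TPM and the median log2 fold change 0.00, or 0.097 with limma on log2(TPM + 1). Mutant TPM thus stand slightly higher against wild type than the log2 fold changes of the main fit do. In TPM, all 9 mutant libraries lay above all 3 wild-type libraries for 566 of the 568 higher genes, a pattern seen in 12.5% of genes tested. All 9 lay below for 192 of the 312 lower genes, a pattern seen in 1.88% of genes tested. The offset of TPM enters both shares, so they cannot be compared between directions. Alike genes were chosen on values from the same libraries, so a lack of overlap named for single alike genes below is no further support. The balance of calls depended on scaling: of the called genes 49.3% were higher under TMM, 68.4% when scaled by library totals and 84.7% for limma on log2(TPM + 1). Alike counts moved with single libraries too. There were 366 higher genes without Vangl2 Lp/Lp replicate 1. Lower genes numbered 112 and 179 without Vangl2 Lp/Lp replicates 1 and 3, 148, 200 and 169 without beta-catenin cKO replicates 1, 2 and 3, 206 without Emg1 cKO replicate 2 and 167 without wild type replicate 3.

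**Figure D1:**
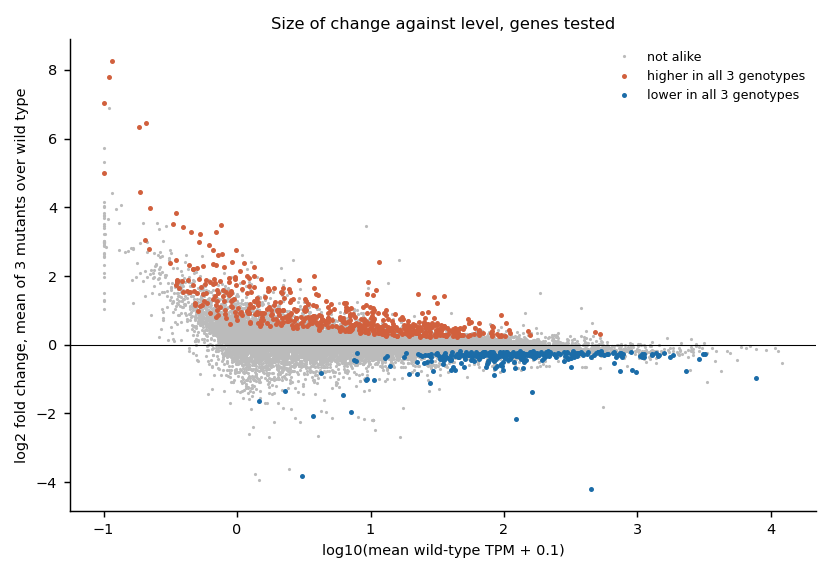
Log2 fold change of the mutant mean over wild type (vertical) against mean wild-type TPM, as log10(TPM + 0.1) (horizontal), with 1 point per gene tested. Red points are the 568 genes higher in all 3 genotypes, blue points the 312 lower in all 3, and grey points the rest; red points spread to the left and far upward, and blue points lie to the right within a narrow band.

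Most neuron genes were higher in the mutant mean. Of 37 tested 31 were higher, 2 were lower (0 with the 9 mutant libraries as 1 group) and 4 were not called, with a median log2 fold change of 0.81. Alike in all 3 genotypes were 21, all higher, which is 56.8% of the list, against 3.18% of all genes tested. The median was 0.76 in beta-catenin cKO, 1.04 in Emg1 cKO and 0.70 in Vangl2 Lp/Lp. The 21 took in cytoskeletal genes (Dcx, Map2, Mapt, Nefl, Nefm, Ina, Stmn2, Stmn3), RNA-binding Elavl2, Elavl3 and Elavl4, and synaptic genes (Syt1, Snap25, Sncg). They also included Chat, which makes acetylcholine, and the transcription factors Lhx1, Lhx5, Pax2, Myt1, Nhlh2 and Onecut2.

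Dcx (doublecortin, ENSMUSG00000031285, mm10 chromosome X, 143855842 to 143933311), a microtubule-binding protein of young migrating neurons, had 23.4, 25.3 and 20.9 TPM in beta-catenin cKO. It had 44.0, 34.7 and 30.3 TPM in Emg1 cKO and 37.3, 20.2 and 19.99 TPM in Vangl2 Lp/Lp, against 8.84, 9.78 and 9.46 TPM in wild type. Every mutant library was above every wild-type library, by 2.77-fold in the mean (1.47 ± 0.17, adjusted p = 6.3e-05). Vangl2 Lp/Lp replicate 1 stood near Emg1 cKO and above its own 2 replicates. The same library was highest of its genotype for Map2, a dendritic microtubule protein, with 27.4, 17.9 and 18.2 TPM in Vangl2 Lp/Lp. Map2 had 18.03 to 20.9 TPM in beta-catenin cKO, 21.8 to 28.8 TPM in Emg1 cKO and 10.4, 10.4 and 10.4 TPM in wild type (0.97 ± 0.12, adjusted p = 8.2e-05). Lhx1, a LIM homeobox factor of spinal interneurons that also marks the nephric duct, had 8.74 to 14.3 TPM in mutants against 3.10, 4.595 and 4.22 TPM in wild type (1.46 ± 0.15, adjusted p = 1.7e-05). For the neuron list as a whole, the median over genes of log2(CPM + 1, TMM-scaled) relative to wild type was 0.92 in Vangl2 Lp/Lp replicate 1, and 0.44 and 0.47 in replicates 2 and 3. It was 0.66 to 0.69 in beta-catenin cKO and 0.88 to 1.04 in Emg1 cKO, against -0.17, 0.03 and 0.15 in the 3 wild-type libraries. That replicate is the library low for posterior Hox genes, and the part of its axial position in its neuron values was not tested. Without it 19 neuron genes were alike and 30 were higher in the mean. In these bulk samples more cells of a type and more RNA per cell cannot be told apart, and the same holds for every tissue list that follows.

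**Figure D2:**
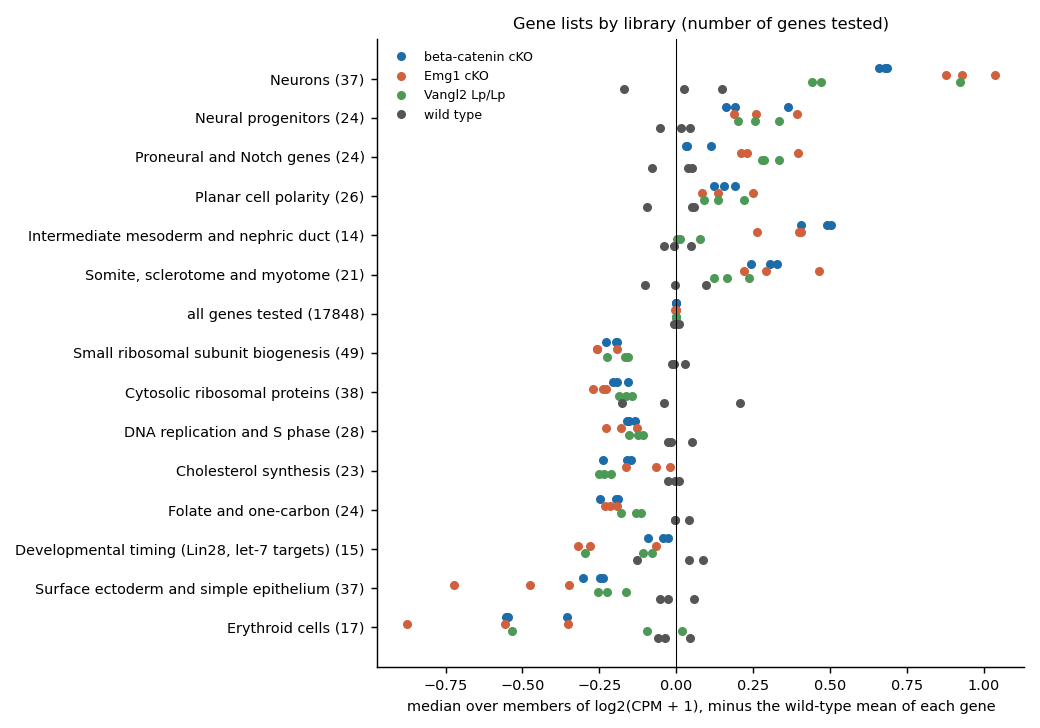
Median over the members of each gene list of log2(CPM + 1), relative to the mean of the 3 wild-type libraries for each gene (horizontal), with 1 point per library and the number of genes tested in brackets. Neuron genes lie above 0 in all 9 mutant libraries, the ribosome, replication and one-carbon lists lie below 0 in all 9, and for cytosolic ribosomal proteins wild type replicate 1 lies among the mutants.

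Some of the largest shared rises were in other neuronal genes that are scarce in wild type. Sez6, which shapes dendrites and synapses, had 1.15 to 2.31 TPM in mutants against 0.271, 0.455 and 0.287 TPM in wild type (2.32 ± 0.25, adjusted p = 2.9e-05). Actl6b, the neuronal subunit of the BAF chromatin remodeller, had 0.949 to 2.47 TPM against 0.244, 0.246 and 0.248 TPM (2.45 ± 0.35, adjusted p = 0.00026). Lamp5, a membrane protein of neurons, had 3.12 to 7.12 TPM against 0.63, 0.407 and 0.808 TPM (2.60 ± 0.27, adjusted p = 2.3e-05). Each of the 3 genes was higher in 9 of 9 mutant libraries than in any wild-type library. The same held for 566 of the 568 alike higher genes and for 12.5% of all genes tested. Erbb4, a neuregulin receptor, had 2.29, 1.04 and 1.10 TPM in Vangl2 Lp/Lp and 0.487 to 0.938 TPM in the other mutants, against 0.111, 0.142 and 0.107 TPM in wild type (2.79 ± 0.32, adjusted p = 5.3e-05). Its rise differed in size among the mutants (adjusted p = 0.032). Pianp had 2.62 to 9.16 TPM in mutants against 0.193, 0.785 and 0.812 TPM in wild type, a 9.72-fold difference (adjusted p = 8.6e-05).

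Among abundant transcripts the shared rises were smaller. Stmn1, which destabilises microtubules, had 630 to 757 TPM in mutants against 500 to 559 TPM in wild type (0.30 ± 0.06, adjusted p = 0.0016). Cdkn1c (p57), an inhibitor of cyclin-dependent kinases that is high in cells leaving the cycle, had 571 to 765 TPM in mutants against 464, 475 and 498 TPM in wild type (0.37 ± 0.06, adjusted p = 0.00071). Miat, a long noncoding RNA of the nervous system, had 162 to 220 TPM in mutants against 92.2, 99.98 and 91.5 TPM in wild type (0.86 ± 0.08, adjusted p = 4.6e-06). Sbk1, a kinase gene, had 189 to 228 TPM against 146, 173 and 154 TPM (0.29 ± 0.05, adjusted p = 0.0016). In Vangl2 Lp/Lp alone, Stmn1 and Sbk1 passed the threshold of 0.05 narrowly (edgeR, adjusted p = 0.05 after rounding, and 0.042).

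**Figure D3:**
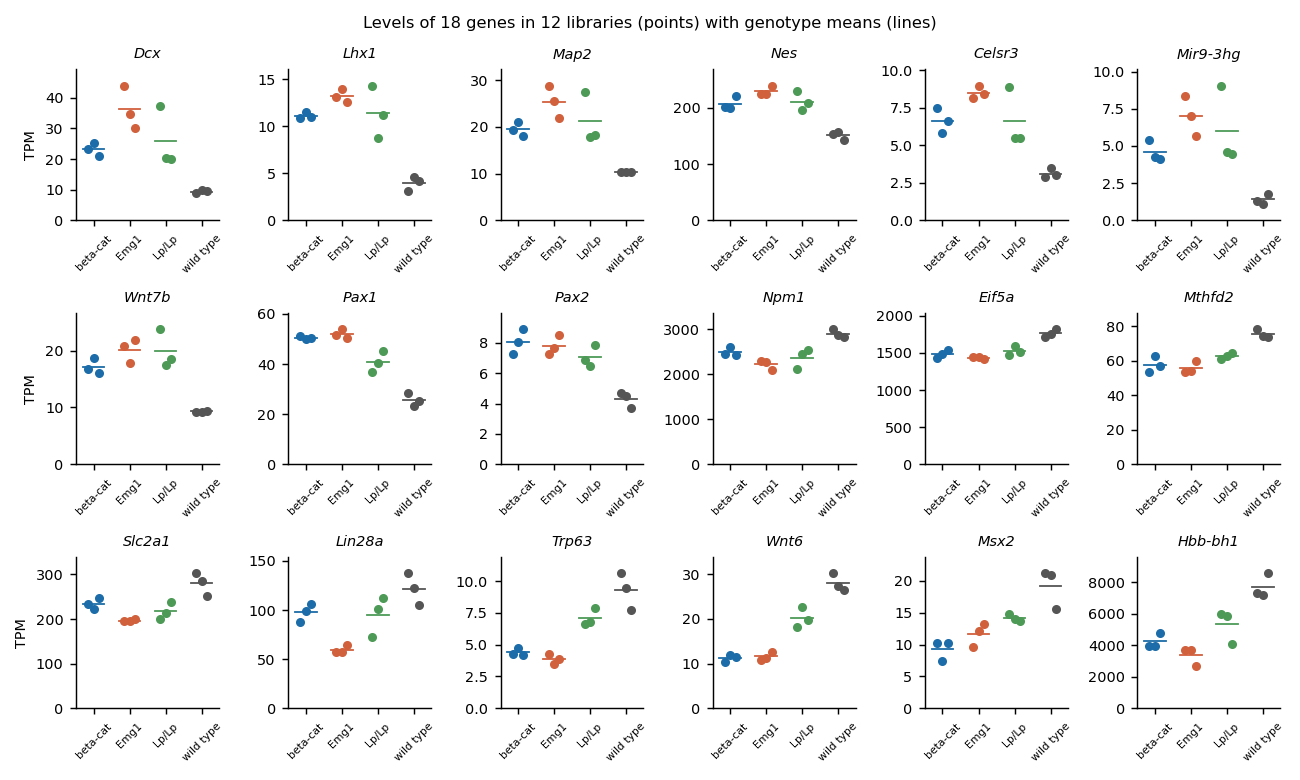
TPM of 18 genes (vertical, from 0) by genotype, with 1 point per library and a line at the mean of 3 libraries. The first 9 panels are higher in all 9 mutant libraries than in wild type; in the last 9, Lin28a and Trp63 overlap with wild type in some Vangl2 Lp/Lp or beta-catenin cKO libraries, and the ectodermal genes are lowest in beta-catenin cKO or Emg1 cKO.

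Host transcripts of microRNAs were higher in part. Of 8 tested genes with a symbol of the form Mir...hg, a rule set after values were seen, 4 were alike and higher, and Mir17hg, Mir22hg, Mir142hg and Mir670hg were not called in the mutant mean (edgeR, adjusted p = 0.23, 0.99, 0.069 and 0.17). The 4 alike ones are described, among them hosts of miR-9 and miR-124, which are abundant in neurons. Mir9-3hg (mm10 chromosome 7, 79500026 to 79534403) had 5.38, 4.23 and 4.15 TPM in beta-catenin cKO, 8.39, 7.02 and 5.68 TPM in Emg1 cKO and 9.07, 4.62 and 4.43 TPM in Vangl2 Lp/Lp, against 1.32, 1.10 and 1.79 TPM in wild type. That is 3.76-fold (1.91 ± 0.25, adjusted p = 0.00013), with no overlap. Mir124-2hg had 20.3 to 33.7 TPM in mutants against 14.1, 12.6 and 11.95 TPM in wild type (0.85 ± 0.11, adjusted p = 0.00014), and Mir124a-1hg 16.2 to 26.7 TPM against 9.28, 10.2 and 10.9 TPM (0.96 ± 0.13, adjusted p = 0.00017). Mir99ahg, which spans the genes of miR-99a, let-7c and miR-125b on chromosome 16 (77236317 to 77691403), had 0.926 to 1.55 TPM against 0.632, 0.672 and 0.539 TPM (0.88 ± 0.14, adjusted p = 0.00061). The mature products that lie inside Mir9-3hg and Mir99ahg on the same strand are shown from RefSeq (GRCm38.p6) because let-7, miR-125 and their target Lin28a return below; capitals mark the seed, bases 2 to 8, and no 2 of the 5 share one.
mmu-miR-9-5p: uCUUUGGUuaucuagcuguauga
mmu-miR-9-3p: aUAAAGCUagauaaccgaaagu
mmu-miR-99a-5p: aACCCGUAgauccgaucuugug
mmu-let-7c-5p: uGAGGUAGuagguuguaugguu
mmu-miR-125b-5p: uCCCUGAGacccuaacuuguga
These are positions and sequences of the annotation. The libraries measured host RNA, and mature microRNA levels were not measured.

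Part of the genes of neural progenitors were higher. Of 24 tested, 12 were higher in the mutant mean, 1 (Ptn) was lower and 11 were not called, with a median of 0.33; 0 were lower with limma on log2(TPM + 1) or without wild type replicate 3. The 6 alike were Sox3, Sox21, Nes, Pax6, Dbx2 and Ncan, and there were 10 with limma on log2(TPM + 1) or library weights. Nes (nestin), the intermediate filament of neural progenitors, had 200.5, 199 and 221 TPM in beta-catenin cKO, 225, 225 and 240 TPM in Emg1 cKO and 229, 196 and 208 TPM in Vangl2 Lp/Lp, against 154, 158 and 143 TPM in wild type (0.40 ± 0.05, adjusted p = 0.00012). Pax6, a homeobox factor of the ventral and intermediate neural tube, had 12.04 to 14.6 TPM against 9.40, 9.81 and 8.25 TPM (0.42 ± 0.05, adjusted p = 0.00013). Ncan, a proteoglycan of the neural matrix, had 6.12 to 12.7 TPM against 2.08, 2.71 and 2.23 TPM (1.61 ± 0.20, adjusted p = 7.7e-05). None of these 3 overlapped between mutants and wild type, which held for 566 of the 568 alike higher genes. Of 24 proneural and Notch genes 10 were higher, 14 were not called and 0 were lower by edgeR (1 lower at an unadjusted p under 0.05), with 6 higher without wild type replicate 1 or the Emg1 cKO genotype, or with the mutants as 1 group. DESeq2 called 13 higher and 0 lower. Neurod4, a proneural factor, and Jag1, a Notch ligand, were the alike ones; 1 was left without Vangl2 Lp/Lp replicates 1 or 2 or wild type replicates 1 or 3, 0 without Vangl2 Lp/Lp replicate 3, and DESeq2 and library totals gave 4. Neurod4 had 29.8 to 40.5 TPM against 22.9, 26.5 and 20.4 TPM (0.44 ± 0.07, adjusted p = 0.00062), and Jag1 36.8 to 45.01 TPM against 31.6, 32.0 and 26.96 TPM (0.31 ± 0.05, adjusted p = 0.00063).

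Some planar cell polarity genes were higher in all 3 genotypes, the beta-catenin and Emg1 mutants included. Of 26 tested, 10 were higher in the mutant mean, 16 were not called and 0 were lower (edgeR, with 3 lower at an unadjusted p under 0.05; DESeq2 10 higher and 1 lower), with a median of 0.15. The 6 alike genes were the atypical cadherins Celsr2, Celsr3, Fat4 and Dchs1, with Dvl3 and Ankrd6; without Vangl2 Lp/Lp replicate 3 or beta-catenin cKO replicate 3 there were 3. Celsr3, which is known for axon guidance, had 5.83 to 7.46 TPM in beta-catenin cKO, 8.13 to 8.98 TPM in Emg1 cKO and 5.47 to 8.84 TPM in Vangl2 Lp/Lp, against 2.86, 3.47 and 2.99 TPM in wild type (1.10 ± 0.14, adjusted p = 9.7e-05). Fat4, which signals with Dchs1, had 27.2 to 37.1 TPM against 22.1, 21.1 and 13.97 TPM (0.70 ± 0.09, adjusted p = 0.00011). Celsr2 had 28.4 to 43.7 TPM against 22.5, 22.5 and 17.3 TPM (0.61 ± 0.09, adjusted p = 0.00026). For Fat4 and Celsr2 wild type replicate 3 was the lowest library.

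Part of the genes of the ventral midline were higher. Of 16 hedgehog and floor plate genes 5 were higher, 11 were not called and 0 were lower by edgeR (0 also at an unadjusted p under 0.05; DESeq2 7 and 0). The higher count was 3 without Vangl2 Lp/Lp replicate 3, beta-catenin cKO replicates 1 or 3, wild type replicates 1 or 3 or the beta-catenin cKO genotype, or with the mutants as 1 group, and 9 without the Vangl2 Lp/Lp genotype. Ntn1 (netrin-1), an axon guidance cue of the floor plate, had 63.3 to 76.2 TPM in mutants against 49.4, 50.2 and 40.1 TPM in wild type (0.50 ± 0.06, adjusted p = 4.2e-05). Spon1 (F-spondin) had 19.1 to 26.0 TPM against 18.7, 16.9 and 15.3 TPM (0.35 ± 0.07, adjusted p = 0.0017). In the notochord list, 3 of 13 were higher, 3 were lower and 7 were not called. There was 1 lower without wild type replicate 1 and 0 with the mutants as 1 group. With limma on log2(TPM + 1) 5 were higher and 0 lower. Lower calls numbered 0 in beta-catenin cKO, 3 in Emg1 cKO and 2 in Vangl2 Lp/Lp. The 2 genes given next are its alike ones, both higher, and do not stand for the whole list. Col2a1, a collagen of notochord and sclerotome, had 160 to 169 TPM in beta-catenin cKO, 189 to 199 TPM in Emg1 cKO and 147 to 171 TPM in Vangl2 Lp/Lp, against 103, 109 and 99.6 TPM in wild type (0.62 ± 0.05, adjusted p = 2.8e-06). Slit3, an axon guidance ligand, had 28.8 to 41.0 TPM against 23.5, 23.2 and 17.6 TPM (0.57 ± 0.08, adjusted p = 0.00019).

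Genes of somites and of intermediate mesoderm, tissues beside the neural tube, were also higher in part. Of 21 somite, sclerotome and myotome genes 11 were higher, 10 were not called and 0 were lower by edgeR (0 also at an unadjusted p under 0.05), and DESeq2 called 12 and 0. Pax1, a sclerotome factor, had 51.1, 50.1 and 50.4 TPM in beta-catenin cKO, 51.7, 53.8 and 50.2 TPM in Emg1 cKO and 36.9, 40.3 and 45.2 TPM in Vangl2 Lp/Lp, against 28.3, 23.4 and 25.1 TPM in wild type (0.78 ± 0.06, adjusted p = 3.2e-06). The rise was smallest in Vangl2 Lp/Lp, and the difference among mutants was called (adjusted p = 0.030). Pax9, its paralog, had 14.1 to 15.9 TPM against 10.7, 10.4 and 8.58 TPM (0.52 ± 0.07, adjusted p = 0.00014), and Tnnt1, a troponin of slow muscle, 10.3 to 18.5 TPM against 5.16, 7.70 and 7.86 TPM (0.89 ± 0.18, adjusted p = 0.0031). Of 14 genes of intermediate mesoderm and nephric duct 9 were higher, 5 were not called and 0 were lower by edgeR, also at an unadjusted p under 0.05 (DESeq2: 9 and 0), with 5 higher with the mutants as 1 group. Pax2 had 6.49 to 8.89 TPM against 4.69, 4.51 and 3.74 TPM (0.73 ± 0.10, adjusted p = 0.00017); it also marks spinal interneurons. Osr2 had 5.67 to 7.81 TPM in Emg1 cKO and 2.81 to 4.26 TPM in the other mutants, against 2.40, 1.71 and 1.76 TPM in wild type (1.02 ± 0.16, adjusted p = 0.00059), with a called difference among mutants (adjusted p = 0.0033). In single genotypes Tnnt1 passed the threshold narrowly in beta-catenin cKO (edgeR, adjusted p = 0.041), and Osr2 in Vangl2 Lp/Lp (0.046). The nephric list's median was 0.55 in beta-catenin cKO, 0.35 in Emg1 cKO and 0.09 in Vangl2 Lp/Lp.

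Genes that build ribosomes were lower by small amounts. Of 49 genes of small ribosomal subunit biogenesis 42 were lower in the mutant mean, 7 were not called and 0 were higher (edgeR, also at an unadjusted p under 0.05; DESeq2 43 lower and 0 higher), with a median of -0.21. The lower count was 31 with library totals alone and 11 with limma on log2(TPM + 1), where 0 were higher. Alike were 15 (30.6% of the list, against 1.75% of all genes tested). There were 6 without Vangl2 Lp/Lp replicate 1 or beta-catenin cKO replicate 1, 10 with library totals and 1 with limma on log2(TPM + 1). The median was -0.21 in beta-catenin cKO, -0.26 in Emg1 cKO and -0.17 in Vangl2 Lp/Lp. Of the 49 genes edgeR called 30, 38 and 18 lower in these genotypes, in that order, and 0 higher in each. Every genotype was set against the same wild-type libraries, so a deviation of those libraries enters each of these medians and counts. The part of Emg1 loss in this list was not tested.

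Npm1 (nucleophosmin, mm10 chromosome 11, 33152287 to 33163206), an abundant nucleolar protein, had 2456, 2600 and 2429 TPM in beta-catenin cKO, 2288, 2272 and 2102 TPM in Emg1 cKO and 2113, 2440 and 2531 TPM in Vangl2 Lp/Lp. Wild type had 2995, 2868 and 2832 TPM, above every mutant library (-0.41 ± 0.05, adjusted p = 0.00013). Wdr36, a component of the small subunit processome, had 72.5 to 90.4 TPM against 106, 96.4 and 94.4 TPM (-0.37 ± 0.05, adjusted p = 0.00034). Bysl (bystin), needed late in small subunit maturation, reached at most 59.8 TPM in mutants (median 56.5) against 63.9, 66.0 and 60.9 TPM (-0.28 ± 0.04, adjusted p = 0.00044). Neither overlapped with wild type.

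The promoters of the 15 alike genes of this list were searched, because the genes moved together under TMM scaling; 13 had an entry among the RefSeq promoters of build GRCm38.p6, which hold 250 bases before and 50 after the start. The E-box CACGTG, which reads the same on both strands and is bound by MYC, MAX and USF factors, was added to the search after values were seen. It was found in 5 of the 13 promoters (38.5%), against 9.6% of 14220 promoters of the genes tested and 7.15% of 32851 promoters in the table. All 5 had it within the first 50 bases after the start, where 1.44% of promoters of genes tested have it. That window was not part of the planned search, so this share lends the match no support. Of the 17848 genes tested 11123 had an entry, which is also under the 80% required of a set, so the shares of genes tested are description only. Of the other motifs, searched on both strands, GCCNNNGGC (AP-2) was in 4 of 13 (30.8%, against 24.9% of promoters of genes tested), CTTTGAA (TCF/LEF) in 2 (15.4%, against 3.41%), and AACCNGTT (grainyhead-like, which takes in AACCGGTT) and the E-box CAGCTG in 1 each (7.69%, against 1.81% and 15.4%). CTTTGAT and AACCGGTT were in 0, against 2.52% and 0.246%. Over all promoters in the table these 6 shares were 16.6%, 5.14%, 2.09%, 16.3%, 3.73% and 0.146%. Across all alike genes such a count is void, since 397 of 568 higher and 215 of 312 lower genes had an entry, under the 80% required. The 50 bases on either side of the start are printed 5′ to 3′ on the gene's strand for the 5 genes with the CACGTG match, which is in capitals, to show that it lies downstream of the start in each.
Wdr43: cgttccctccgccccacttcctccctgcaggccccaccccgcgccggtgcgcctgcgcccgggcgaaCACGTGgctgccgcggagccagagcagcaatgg
Utp4: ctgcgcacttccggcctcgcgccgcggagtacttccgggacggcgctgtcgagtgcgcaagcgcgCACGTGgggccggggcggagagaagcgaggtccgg
Tsr1: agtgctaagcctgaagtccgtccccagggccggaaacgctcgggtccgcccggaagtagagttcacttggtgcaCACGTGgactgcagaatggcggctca
Pno1: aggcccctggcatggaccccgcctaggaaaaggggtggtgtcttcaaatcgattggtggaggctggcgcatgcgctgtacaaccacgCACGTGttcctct
Ltv1: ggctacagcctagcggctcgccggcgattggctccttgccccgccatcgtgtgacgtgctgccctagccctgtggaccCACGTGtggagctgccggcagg
Counted from 1 at the first base after the start, the match begins at base 18 in Wdr43 (chr17:71616165-71616264, plus strand), 16 in Utp4 (chr8:106893590-106893689, plus), 25 in Tsr1 (chr11:74898030-74898129, plus), 38 in Pno1 (chr11:17211540-17211639, minus) and 29 in Ltv1 (chr10:13193088-13193187, minus). A match is a description of letters and not evidence of binding.

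The 5 genes behind these promoters, chosen after values were seen, each changed little. Wdr43 and Utp4 belong to the early processome. Wdr43 had 137 to 158 TPM in mutants against 172.5, 173 and 155 TPM in wild type (-0.28 ± 0.04, adjusted p = 0.00054), and Utp4 69.8 to 80.2 TPM against 87.9, 84.8 and 75.1 TPM (-0.26 ± 0.04, adjusted p = 0.00076). Tsr1, Pno1 and Ltv1 act on the late pre-40S particle. Tsr1 had 82.5 to 95.6 TPM against 111, 103 and 93.5 TPM (-0.28 ± 0.05, adjusted p = 0.00060). Pno1 had 104 to 129 TPM against 134, 126.5 and 133 TPM (-0.28 ± 0.06, adjusted p = 0.0051), and Ltv1 79.2 to 93.6 TPM against 96.7, 99.4 and 86.8 TPM (-0.27 ± 0.05, adjusted p = 0.0024). In each of the 5, at least 1 wild-type library lay within the range of the mutants. Utp4, Pno1 and Ltv1 were not called with limma on log2(TPM + 1) (adjusted p = 0.051, 0.062 and 0.071).

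For cytosolic ribosomal proteins the wild-type libraries themselves disagreed. Of 38 tested, 26 were lower in the mutant mean, 12 were not called and 0 were higher (edgeR, also at an unadjusted p under 0.05; DESeq2 32 and 0), with a median of -0.20. There were 10 lower without wild type replicate 3, 13 without the Emg1 cKO genotype, 15 with library totals and 8 with limma on log2(TPM + 1). Relative to the wild-type mean the list's median was -0.27 to -0.14 in the 9 mutant libraries, against -0.18, -0.04 and 0.21 in wild type replicates 1, 2 and 3. Wild type replicate 1 thus lay inside the mutant range. Alike genes numbered 4, and from 1 (without Vangl2 Lp/Lp replicate 1) and 2 (without beta-catenin cKO replicates 1 or 3) to 27 (without wild type replicate 1), with 2 by limma on log2(TPM + 1), 8 with library weights, 10 by DESeq2 and 16 with no filter on low values. Rpl4, a large-subunit protein, had 2735 to 2827 TPM against 3002, 3071 and 3250 TPM (-0.27 ± 0.05, adjusted p = 0.00090), and Rpl7 1210 to 1327 TPM against 1427, 1385 and 1569 TPM (-0.30 ± 0.05, adjusted p = 0.0014). Rps27l, a paralog of Rps27 that p53 induces, had 228 to 260 TPM against 272.5, 282 and 346 TPM (-0.42 ± 0.08, adjusted p = 0.0012). Eif5a, a translation factor, had 1419 to 1594 TPM against 1721, 1755 and 1816 TPM (-0.36 ± 0.05, adjusted p = 0.00013).

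Part of the genes of growth and division were lower. Of 28 DNA replication and S phase genes 15 were lower and 0 higher by edgeR, also at an unadjusted p under 0.05 (DESeq2: 16 and 0), with a median of -0.16; with library totals there were 10 lower and with limma on log2(TPM + 1) 3. Ccne1 (cyclin E1) had 93.6 to 108 TPM against 114, 116 and 114 TPM (-0.29 ± 0.05, adjusted p = 0.00063). Tyms, which makes thymidylate from folate, had 53.5 to 66.3 TPM against 64.4, 65.7 and 68.2 TPM (-0.26 ± 0.05, adjusted p = 0.0027), and Rrm2, a subunit of ribonucleotide reductase, 415 to 525.5 TPM against 531, 518 and 514 TPM (-0.27 ± 0.06, adjusted p = 0.0040). Rrm2 was not called with limma on log2(TPM + 1) (adjusted p = 0.062). Of 21 mitosis genes 6 were lower and 0 higher by edgeR, also at an unadjusted p under 0.05 (7 and 0 by DESeq2), with 1 lower without wild type replicate 3, 2 without the Emg1 cKO genotype or with library totals and 3 without the beta-catenin cKO genotype. With limma on log2(TPM + 1) 1 was lower and 2 were higher. Cdk1 was called (-0.25 ± 0.06, adjusted p = 0.0046). Birc5 was called too (-0.19 ± 0.05, adjusted p = 0.0097), but not without wild type replicate 3 (adjusted p = 0.055) or the Emg1 cKO genotype (0.054), or with limma on log2(TPM + 1) (0.16). Tuba1b, a tubulin of dividing and young cells, had 2659 to 3129 TPM against 3170, 3188 and 3269 TPM (-0.26 ± 0.05, adjusted p = 0.0014).

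One-carbon metabolism, which supplies folate-bound units for nucleotides and is known for its link with neural tube closure, had 13 of 24 genes lower, 1 higher and 10 not called, with a median of -0.18. With limma on log2(TPM + 1) 8 were lower. Mthfd2, a mitochondrial enzyme that is high in dividing cells, had 53.7, 62.5 and 56.8 TPM in beta-catenin cKO, 53.5, 53.9 and 59.6 TPM in Emg1 cKO and 61.0, 62.8 and 64.4 TPM in Vangl2 Lp/Lp, against 78.1, 74.3 and 73.6 TPM in wild type (-0.47 ± 0.05, adjusted p = 3.4e-05). Mthfd1, its cytosolic counterpart, had 94.3 to 115 TPM against 124, 122 and 108 TPM (-0.29 ± 0.04, adjusted p = 0.00019). Aldh1l2, which turns mitochondrial formyl-folate into carbon dioxide, was the 1 higher gene, at 2.11 to 3.21 TPM against 1.36, 1.51 and 1.06 TPM (0.89 ± 0.14, adjusted p = 0.00048). Alike were 5 lower and 1 higher, and without Vangl2 Lp/Lp replicate 1 there were 1 and 0. The lower count was 2 without Vangl2 Lp/Lp replicate 2 or wild type replicate 2, and 3 without Vangl2 Lp/Lp replicate 3, beta-catenin cKO replicates 1 or 2, or wild type replicate 3. Library totals gave 2 alike lower and limma on log2(TPM + 1) 1.

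Part of the genes of glycolysis and of cholesterol synthesis were lower. Of 26 glycolysis and hypoxia genes 11 were lower and 2 were higher, limma on log2(TPM + 1) called 7 and 3, and 7 were lower with the mutants as 1 group. Without wild type replicate 1 or the Emg1 cKO genotype there was 1 higher, and without replicates 2 or 3 of wild type there were 0. Slc2a1 (GLUT1), the main embryonic glucose transporter, had 223 to 248 TPM in beta-catenin cKO, 194.6 to 200.2 TPM in Emg1 cKO and 200.7 to 237.5 TPM in Vangl2 Lp/Lp, against 302, 285 and 252 TPM in wild type (-0.48 ± 0.05, adjusted p = 1.7e-05). Slc2a3 (GLUT3) had 38.0 to 47.9 TPM in beta-catenin cKO and Emg1 cKO and 53.8, 66.7 and 71.3 TPM in Vangl2 Lp/Lp, against 102, 78.9 and 69.8 TPM in wild type (-0.87 ± 0.08, adjusted p = 1.2e-05). Vangl2 Lp/Lp overlapped with wild type, and the fall differed among mutants (adjusted p = 0.0027). Of 23 cholesterol synthesis genes 13 were lower and 0 higher by edgeR, also at an unadjusted p under 0.05 (13 and 0 by DESeq2), with 7 lower without wild type replicate 2, without the Vangl2 Lp/Lp genotype, with library totals or with the mutants as 1 group, 8 without the beta-catenin cKO genotype and 3 with limma on log2(TPM + 1). The list's median was -0.18 in beta-catenin cKO, -0.10 in Emg1 cKO and -0.24 in Vangl2 Lp/Lp; the difference between these medians was not tested. Msmo1 had 30.8 to 34.4 TPM in Vangl2 Lp/Lp and 36.7 to 43.8 TPM in the other mutants, against 49.9, 44.2 and 40.5 TPM in wild type (-0.36 ± 0.05, adjusted p = 0.00033; difference among mutants, adjusted p = 0.026). Fdps, which makes farnesyl diphosphate, had 29.4 to 36.3 TPM against 37.5, 39.7 and 43.1 TPM (-0.43 ± 0.06, adjusted p = 0.00034), and Idi1 67.7 to 79.7 TPM against 88.0, 84.5 and 78.5 TPM (-0.31 ± 0.05, adjusted p = 0.00063).

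Some genes of developmental timing were lower, among them the RNA-binding protein Lin28a. Lin28a blocks the maturation of let-7 and is itself a target of let-7 and miR-125, whose host transcript is described above. It had 88.3, 99.2 and 107 TPM in beta-catenin cKO, 57.6, 56.9 and 64.0 TPM in Emg1 cKO and 72.5 to 112 TPM in Vangl2 Lp/Lp, against 137, 123 and 105 TPM in wild type (-0.67 ± 0.09, adjusted p = 0.00026). Emg1 cKO was lowest, the other mutants reached into the wild-type range, and the difference among mutants was called (adjusted p = 0.0026). Within Vangl2 Lp/Lp, replicate 1 was lowest for Lin28a and highest for Dcx and Map2. Hmga1, a chromatin protein and let-7 target, had 1119 to 1378 TPM against 1415, 1525 and 1334 TPM (-0.33 ± 0.05, adjusted p = 0.00069). Of 15 genes in the list 6 were lower, 9 were not called and 0 were higher (edgeR, with 1 at an unadjusted p under 0.05; DESeq2 6 and 1), and limma on log2(TPM + 1) called 3 lower and 1 higher. Leaving out Emg1 cKO replicate 1 or wild type replicate 1, or scaling by library totals, gave 1 higher. Alike lower were Lin28a and Hmga1, with 0 without Vangl2 Lp/Lp replicate 1 or wild type replicate 2 and 4 without wild type replicate 3. Lin28a was not alike without Vangl2 Lp/Lp replicate 1, beta-catenin cKO replicates 1 or 2, or wild type replicates 1 or 2. The list's median of log2(CPM + 1) relative to wild type was -0.129 in wild type replicate 3, against -0.319 to -0.027 in mutants. The somite stage of the pools is not known here, so stage and genotype cannot be told apart in this or the neuron list.

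Most surface ectoderm genes were lower in the mean, unequally among the mutants. Of 37 tested 23 were lower, 2 (Wnt7b and Jup) were higher and 12 were not called, with a median of -0.37. The median was -0.25 in beta-catenin cKO, -0.55 in Emg1 cKO and -0.24 in Vangl2 Lp/Lp, and 12, 24 and 5 genes were lower in them. For 15 of the 37 the difference among mutants was called, against 6.32% of all genes. Lower alike were Trp63, Wnt6 and Perp, with 1 without Vangl2 Lp/Lp replicate 1 or with limma on log2(TPM + 1), 5 without Emg1 cKO replicate 1 or with library weights and 7 with no filter on low values. The lower count in the mean was 13 without the Emg1 cKO genotype, 9 with the 9 mutant libraries as 1 group and 13 with limma on log2(TPM + 1). Jup was not called without any 1 of 10 of the 12 libraries.

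Trp63 (ENSMUSG00000022510, mm10 chromosome 16, 25683763 to 25892102), the transcription factor that commits ectoderm to a stratified epidermis, had 4.28, 4.73 and 4.18 TPM in beta-catenin cKO. It had 4.26, 3.52 and 3.90 TPM in Emg1 cKO and 6.64, 6.75 and 7.87 TPM in Vangl2 Lp/Lp, against 10.6, 9.49 and 7.72 TPM in wild type (-1.004 ± 0.08, adjusted p = 3.2e-06). Of the mutants Vangl2 Lp/Lp alone overlapped with wild type, and the difference among mutants was called (adjusted p = 0.00027). Wnt6, a WNT ligand of the surface ectoderm, had 10.3 to 12.6 TPM in beta-catenin cKO and Emg1 cKO and 18.1, 22.7 and 19.8 TPM in Vangl2 Lp/Lp, against 30.2, 27.3 and 26.4 TPM in wild type (-1.12 ± 0.08, adjusted p = 1.8e-06; difference, adjusted p = 0.00021). Perp, a desmosome protein that p63 induces, had 14.6 to 18.2 TPM in beta-catenin cKO and Emg1 cKO and 22.1, 27.3 and 22.2 TPM in Vangl2 Lp/Lp, against 28.1, 28.3 and 31.3 TPM in wild type (-0.75 ± 0.09, adjusted p = 7.6e-05). For both genes Vangl2 Lp/Lp lay between the other mutants and wild type. Perp passed the threshold narrowly in that genotype (edgeR, adjusted p = 0.049). Sp6, a transcription factor of ectodermal organs, had 3.87 to 7.53 TPM against 13.5, 10.2 and 7.57 TPM (-1.02 ± 0.12, adjusted p = 7.7e-05). Wnt7b, also placed in this list though it is expressed in neural tube as well, went the other way, with 16.1 to 23.7 TPM against 9.26, 9.25 and 9.39 TPM (0.93 ± 0.10, adjusted p = 2.6e-05).

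Other ectodermal genes were called in the mean but not alike. Grhl3 had 8.51, 8.57 and 7.87 TPM in beta-catenin cKO, 3.18, 6.23 and 7.61 TPM in Emg1 cKO and 9.44, 12.7 and 11.99 TPM in Vangl2 Lp/Lp, against 15.1, 16.2 and 13.7 TPM in wild type (-0.99 ± 0.16, adjusted p = 0.00076). It was not called in Vangl2 Lp/Lp. Grhl2 had 1.96 to 3.48 TPM against 4.68, 3.14 and 2.995 TPM (-0.57 ± 0.12, adjusted p = 0.0037), and was not called in the mean without the Emg1 cKO genotype (adjusted p = 0.068) or with limma on log2(TPM + 1) (adjusted p = 0.066). Sfn (stratifin) was lower in the mean (-0.68 ± 0.10, adjusted p = 0.00031) with a called difference among mutants (adjusted p = 0.0084). Tfap2c, an AP-2 factor listed with ectoderm and germ cells, had 4.16, 4.67 and 3.97 TPM in beta-catenin cKO and 6.59, 6.85 and 6.13 TPM in Emg1 cKO, and 11.1, 12.9 and 13.5 TPM in Vangl2 Lp/Lp, against 13.3, 12.96 and 12.98 TPM in wild type (-1.002 ± 0.08, adjusted p = 3.2e-06; difference, adjusted p = 4.7e-06). Its mean contrast therefore describes 2 of the 3 genotypes. Prdm1, listed here with germ cells and not with ectoderm, was lower in the mean as well (edgeR, -0.52 ± 0.12, adjusted p = 0.0061). Of 8 germ cell genes tested 2 were lower (Tfap2c and Prdm1), 2 were higher and 4 were not called, with a median of 0.06. The higher count was 0 without wild type replicates 2 or 3.

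BMP signals from the surface ectoderm and dorsal neural tube act through Msx and Id genes. Of 22 genes in the list 6 were lower, 4 were higher and 12 were not called, against 11.1% lower and 10.8% higher among all genes tested. Alike were 4 lower (Bmp4, Bambi, Msx1 and Msx2) and 1 higher (Id4). Without Vangl2 Lp/Lp replicates 1 or 3 or wild type replicate 2 there were 2 alike lower, and with limma on log2(TPM + 1) 1. The higher count was 2 without beta-catenin cKO replicate 1, wild type replicates 2 or 3 or the beta-catenin cKO genotype. Msx2 had 10.3, 7.42 and 10.2 TPM in beta-catenin cKO, 9.66, 12.1 and 13.2 TPM in Emg1 cKO and 14.8, 14.01 and 13.6 TPM in Vangl2 Lp/Lp, against 21.2, 20.9 and 15.7 TPM in wild type (-0.84 ± 0.11, adjusted p = 0.00014; difference, adjusted p = 0.034). Msx1 had 48.1 to 60.4 TPM in beta-catenin cKO and 67.7 to 88.0 TPM in the other mutants, against 92.3, 99.0 and 91.1 TPM in wild type (-0.57 ± 0.08, adjusted p = 0.00015). In Vangl2 Lp/Lp alone Msx1 passed the threshold narrowly (edgeR, adjusted p = 0.045). Bambi, a decoy receptor induced by BMP and WNT signals, had 17.4 to 23.2 TPM against 27.5, 26.4 and 25.4 TPM (-0.49 ± 0.06, adjusted p = 4.8e-05), with no overlap. Id4, an inhibitor of bHLH factors that is high in neural progenitors, had 17.4 to 31.1 TPM against 9.33, 9.67 and 10.2 TPM (1.09 ± 0.11, adjusted p = 1.2e-05).

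WNT/beta-catenin targets had 10 of 24 lower, 1 higher and 13 not called; the lower count was 6 without wild type replicate 1, 4 without wild type replicate 2, 5 without the beta-catenin cKO genotype, 8 with library totals, 6 with limma on log2(TPM + 1) and 3 with the mutants as 1 group. The 1 higher gene was not called without wild type replicate 1. Alike were Bambi and Tnfrsf19, and there was 1 without Vangl2 Lp/Lp replicate 1 or wild type replicate 2 or with limma on log2(TPM + 1). Tnfrsf19 had 42.5 to 46.6 TPM in beta-catenin cKO and Emg1 cKO and 48.1, 52.4 and 52.7 TPM in Vangl2 Lp/Lp, against 60.3, 61.1 and 51.7 TPM in wild type (-0.42 ± 0.05, adjusted p = 4.2e-05). The list's median was -0.42 in beta-catenin cKO, -0.32 in Emg1 cKO and 0.03 in Vangl2 Lp/Lp. Crabp2, which binds retinoic acid, had 548 to 709 TPM against 740, 767 and 811 TPM (-0.37 ± 0.06, adjusted p = 0.00037). Ngfr, a receptor of neural crest and neurons, had 64.6 to 96.4 TPM against 45.4, 55.6 and 48.5 TPM (0.53 ± 0.07, adjusted p = 0.00014), with the largest rise in Emg1 cKO (difference, adjusted p = 0.0088).

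Genes whose own loss impairs neural tube closure in mice were not alike as a group. Of 51 tested 10 were lower, 4 were higher and 37 were not called, against 11.1% lower and 10.8% higher among all genes tested. The median was -0.01. Limma on log2(TPM + 1) turned the balance to 3 lower and 12 higher, and library totals to 6 and 9. The lower count was 6 without wild type replicate 2 and 5 without the Emg1 cKO genotype, and the higher count 2 without wild type replicate 3 or the beta-catenin cKO genotype. By edgeR only Rgma was alike, and 2 were alike higher with library totals or limma on log2(TPM + 1). Rgma rose (43.2 to 57.7 TPM against 35.5, 34.8 and 30.5 TPM, 0.46 ± 0.07, adjusted p = 0.00032); it encodes a guidance molecule and BMP co-receptor. Of 27 p53 targets 4 were higher and 4 lower, against 10.8% and 11.1% of all genes tested, with a median of 0.00. There were 2 lower without wild type replicate 2 or with the mutants as 1 group. Alike were 1 higher (Plk3) and 2 lower (Perp and Rps27l, given above with other lists). Alike higher were 0 without Vangl2 Lp/Lp replicate 1, beta-catenin cKO replicate 3 or wild type replicate 1. Alike lower were 0 without Vangl2 Lp/Lp replicate 1, and 1 without any other library but Vangl2 Lp/Lp replicate 2 or wild type replicate 1. Plk3, a stress kinase, had 29.2 to 39.9 TPM against 21.2, 23.8 and 22.6 TPM (0.45 ± 0.08, adjusted p = 0.0015). Jun was the 1 higher gene of 17 immediate early and heat shock genes, which respond to handling; it had 55.0 to 69.2 TPM against 50.6, 48.4 and 44.0 TPM (0.30 ± 0.06, adjusted p = 0.0040). In that list 2 were higher without wild type replicate 1 and 3 without the Emg1 cKO genotype. In it 1 was lower, or 0 with limma on log2(TPM + 1), the mutants as 1 group or without the Emg1 cKO genotype, 2 without Emg1 cKO replicate 3, Vangl2 Lp/Lp replicate 1 or beta-catenin cKO replicate 3 and 3 without wild type replicate 1 or the Vangl2 Lp/Lp genotype.

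Erythroid genes were lower in the mean, and globins did not move as a block. Of 17 tested 12 were lower, 1 was higher and 4 were not called, with a median of -0.45, and 6 were lower with the mutants as 1 group. The median was -0.53 in beta-catenin cKO, -0.60 in Emg1 cKO and -0.17 in Vangl2 Lp/Lp, with 11, 13 and 4 genes lower. On the log2(CPM + 1) scale relative to wild type, Vangl2 Lp/Lp replicates 1, 2 and 3 had list medians of 0.019, -0.095 and -0.533. The wild-type libraries had -0.058, -0.035 and 0.046. The summed level was 17220 to 32290 TPM in mutants and 29980 to 35730 TPM in wild type. Primitive red cells from the yolk sac carry Hbb-bh1, Hbb-y and Hba-x, and definitive cells of the fetal liver carry the adult genes Hbb-bs and Hbb-bt. Hbb-bh1 (mm10 chromosome 7, 103841637 to 103843164) had 3979, 3976 and 4782 TPM in beta-catenin cKO, 3679, 3711 and 2679 TPM in Emg1 cKO and 6010, 5835 and 4096 TPM in Vangl2 Lp/Lp, against 7309, 7160 and 8554 TPM in wild type (-0.97 ± 0.12, adjusted p = 6.9e-05). All mutant libraries were below wild type, with a called difference among them (adjusted p = 0.026).

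Of the other globins Hbb-bh0 was below wild type in all 9 mutant libraries, Hbb-bt was above it in all 9, and 5 overlapped; apart from Hbb-bh0 they were named after values were seen. Hbb-y had 7100 to 11980 TPM against 10860, 11770 and 14010 TPM (-0.53 ± 0.13, adjusted p = 0.0076, and 0.082 without wild type replicate 3). Hba-x was called (-0.45 ± 0.10, adjusted p = 0.0044) but not without the Emg1 cKO genotype (adjusted p = 0.051). Hba-a1 was called (-0.46 ± 0.12, adjusted p = 0.014), though leaving out wild type replicate 3 gave 0.11. Hba-a2 was called (-0.37 ± 0.12, adjusted p = 0.038), though leaving out that library gave 0.23 and leaving out any 1 of 6 others also ended the call. Hbb-bs was not called, at 105 ± 26 TPM in mutants against 92.3 ± 24 TPM in wild type (adjusted p = 0.92). Hbb-bt had 68.7 to 130 TPM against 45.8, 52.6 and 61.3 TPM (0.76 ± 0.19, adjusted p = 0.0098), with no overlap. Hbb-bh0, a pseudogene of the locus, had 4.52 to 55.6 TPM against 98.5, 106 and 162 TPM (-2.16 ± 0.40, adjusted p = 0.0015). Hbb-bs and Hbb-bt are near-identical, as are Hba-a1 and Hba-a2, so reads may be split between them. Alas2, the first enzyme of haem synthesis in red cells, had 49.6 to 83.4 TPM against 100.1, 97.8 and 96.0 TPM (-0.74 ± 0.10, adjusted p = 0.00015). Tfrc, the transferrin receptor, had 73.5 to 93.8 TPM against 117, 108 and 95.9 TPM (-0.45 ± 0.06, adjusted p = 9e-05).

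**Figure D4:**
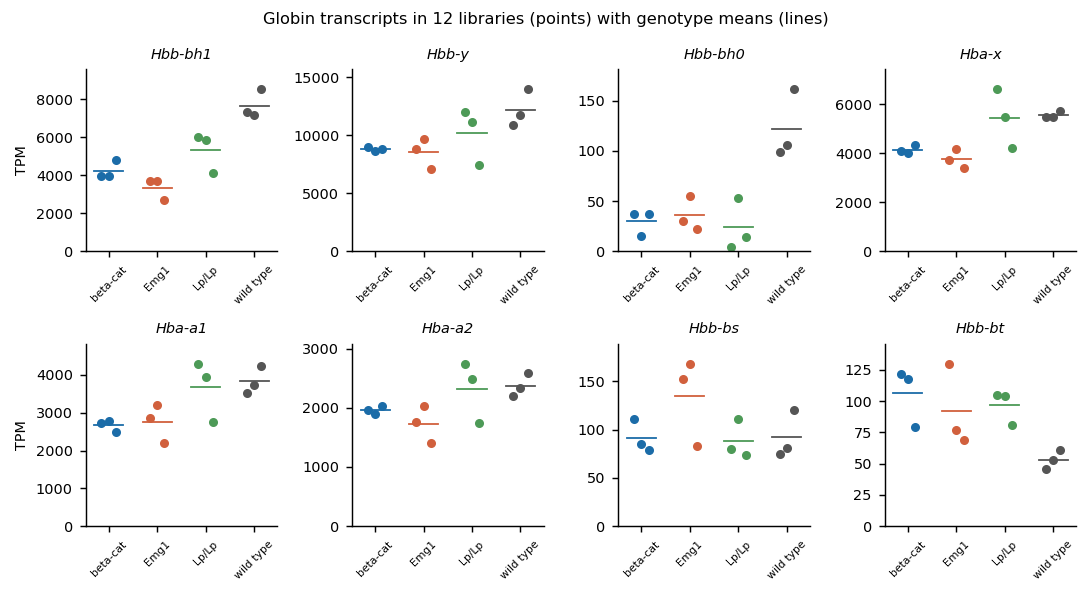
TPM of 8 globin transcripts (vertical, from 0) by genotype, with 1 point per library and a line at the mean of 3 libraries. Hbb-bh1 and Hbb-bh0 are below wild type in all 9 mutant libraries, Hbb-bt is above it in all 9, and the other 5 overlap.

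Markers of other tissues bear on how the pools were made up, and their part in the results above was not tested. The counts that follow stand beside 10.8% higher and 11.1% lower among all genes tested. Of 16 endothelial genes 5 were lower and 0 higher by edgeR, also at an unadjusted p under 0.05 (DESeq2: 5 and 0), at a summed 524.5 to 630 TPM in mutants and 541 to 592 TPM in wild type. That lower count was 3 without Emg1 cKO replicate 2, beta-catenin cKO replicate 1 or wild type replicate 3, 2 without wild type replicate 1 and 1 without replicate 2. It was 0 with limma on log2(TPM + 1), 1 with library totals, 2 with the mutants as 1 group or without the Emg1 cKO genotype, and 3 without the Vangl2 Lp/Lp genotype. Kdr was called (-0.22 ± 0.05, adjusted p = 0.0083) but not without wild type replicates 1 (adjusted p = 0.051) or 2 (0.052), and Egfl7 was called (-0.18 ± 0.05, adjusted p = 0.026), with 0.18 when wild type replicate 3 was left out. Of 13 macrophage genes 2 were higher and 0 lower by edgeR, also at an unadjusted p under 0.05 (1 and 0 by DESeq2), at 64.4 to 86.3 TPM against 53.9 to 63.7 TPM. The higher count was 1 or 0 without any library but Vangl2 Lp/Lp replicate 2, and 0 without the Emg1 cKO or beta-catenin cKO genotype. Mrc1 (0.47 ± 0.15, adjusted p = 0.034) and C1qa (0.51 ± 0.17, adjusted p = 0.045) were these 2. Limb and lateral plate mesenchyme had 8 of 20 lower and 0 higher by edgeR, also at an unadjusted p under 0.05 (DESeq2: 8 and 0), with 5 lower without wild type replicate 3 and 4 with the mutants as 1 group, library totals or limma on log2(TPM + 1), at 822 to 1035 TPM against 944.5 to 1014 TPM. Hand2 (-0.57 ± 0.08, adjusted p = 0.00022) and Lhx9 (-0.62 ± 0.09, adjusted p = 0.00033) were lower in the mean with called differences among the mutants. Hand2 in Vangl2 Lp/Lp stood at 62.2, 62.3 and 65.4 TPM, against 65.7, 58.3 and 55.4 TPM in wild type. Of 11 gut genes 0 were higher and 0 lower by edgeR (1 higher at an unadjusted p under 0.05), and DESeq2, library totals and limma on log2(TPM + 1) each called 1 higher and 0 lower.

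Some of the largest shared changes lay in neighbouring genes or in scarce and repeated ones. A cluster of zinc finger genes on mm10 chromosome 2 (175191065 to 177206421) had 22 alike higher genes among 30 tested. Over those 22 the median log2 fold change was 2.76, with a range of 0.567 to 8.264. At the top of that range lay gene models, which the naming rule leaves out, with mean wild-type levels of 0.0147 and 0.0102 TPM. Their mutant means were 5.59 and 2.93 TPM. Zfp968 had 1.78 to 3.36 TPM in mutants against 0.327, 0.183 and 0.184 TPM in wild type (3.51 ± 0.28, adjusted p = 2.5e-06). Its neighbours Zfp969, Zfp967, Zfp966, Zfp973 and Zfp965 had log2 fold changes of 3.43, 3.28, 2.99, 3.22 and 2.76. These genes are closely related in sequence and may share reads. Zfp345, another zinc finger gene on that chromosome, went down, at 0.221 to 0.864 TPM against 1.39, 1.32 and 1.34 TPM (-1.63 ± 0.30, adjusted p = 0.0014).

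On chromosome 10 a few genes near each other were lower. Of 13 tested genes, from 6 before Mif to 6 after it, Mif, Ddt and Smarcb1 were alike, Cabin1, Derl3 and Mmp11 were lower in the mean, and 7 were not called. Gstt1, Gstt2 and Gstt3 lie between Ddt and Mif and were among the 7 (edgeR, log2 fold changes -0.40, -0.03 and -0.30, adjusted p = 0.28, 0.94 and 0.36). Mif, a cytokine with tautomerase activity (75859353 to 75860240), had 1493, 1572 and 1508 TPM in beta-catenin cKO, 1273, 1400 and 1479 TPM in Emg1 cKO and 1553, 1483 and 1499 TPM in Vangl2 Lp/Lp, against 1886, 2445 and 2550 TPM in wild type (-0.75 ± 0.08, adjusted p = 2.8e-05). Its paralog Ddt had 85.2 to 99.4 TPM against 99.6, 147 and 166 TPM (-0.67 ± 0.12, adjusted p = 0.0010). Smarcb1, a BAF chromatin remodeller subunit named after values were seen, had 52.4 to 59.5 TPM against 62.0, 81.8 and 80.7 TPM (-0.55 ± 0.07, adjusted p = 0.00017). In all 3 genes wild type replicate 1 was the wild-type library nearest to the mutants. Rps3a2 showed the same order (422 to 546 TPM against 572, 810 and 833 TPM, -0.76 ± 0.10, adjusted p = 0.00013), and so did its relative Rps3a3. Rps3a3 had 8.34 to 17.6 TPM in 7 mutant libraries and 144 and 213 TPM in Emg1 cKO replicates 2 and 3, against 152, 610 and 575 TPM in wild type (-4.20 ± 0.49, adjusted p = 5.5e-05). Both are copies of a ribosomal protein gene and may share reads with it.

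**Figure D5:**
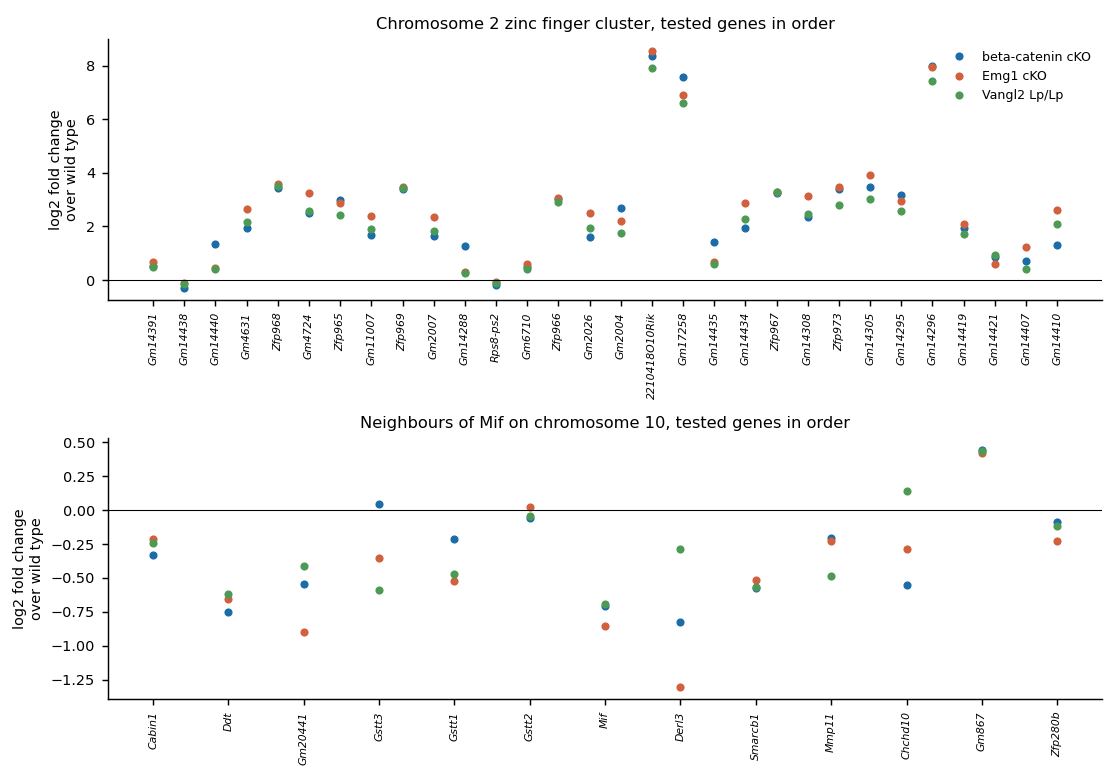
Log2 fold change over wild type (vertical) of tested genes in their order along the chromosome (horizontal), for the chromosome 2 zinc finger cluster (top) and the genes beside Mif on chromosome 10 (bottom), with 1 point per mutant genotype. In the cluster the 3 genotypes lie close together for most genes, and beside Mif the 3 genotypes are lower in Mif, Ddt and Smarcb1 and near 0 in Gstt2.

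Other genes with large changes varied more. Ifi204, an interferon-inducible gene of a family of close paralogs, had 15.3, 7.17 and 0.222 TPM in beta-catenin cKO, 4.35, 0.0172 and 6.97 TPM in Emg1 cKO and 29.7, 43.6 and 46.3 TPM in Vangl2 Lp/Lp, against 0, 0.246 and 0.0717 TPM in wild type. It was called (6.45 ± 1.30, adjusted p = 0.0029), though 2 mutant libraries lay within the wild-type range, and it was not called with library weights (adjusted p = 0.21). Lyrm7, a mitochondrial complex assembly factor, had 0.920 to 3.01 TPM against 7.72, 6.05 and 7.21 TPM (-1.97 ± 0.16, adjusted p = 2.8e-06). Nxpe2 had 0.700 to 1.43 TPM against 2.99, 1.96 and 1.62 TPM (-1.34 ± 0.22, adjusted p = 0.00061). Mt1, a metallothionein, had 16.5 to 33.7 TPM against 44.9, 33.2 and 41.9 TPM (-0.72 ± 0.17, adjusted p = 0.0062), and Esm1, an endothelial secreted protein, 2.10 to 3.19 TPM against 3.73, 4.76 and 3.92 TPM (-0.82 ± 0.15, adjusted p = 0.0017).

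The 3 mutants were not the same profile. A difference among them was called for 1128 genes (6.32%; 657 without Emg1 cKO replicate 2, 750 without Vangl2 Lp/Lp replicate 2, 743 and 684 without beta-catenin cKO replicates 2 and 3), of which 546 were also called in the mean, and 24 genes had calls of opposite sign in 2 genotypes. Olig3, a factor of dorsal neural progenitors, had 12.1, 10.8 and 15.3 TPM in beta-catenin cKO, 23.6, 26.5 and 29.9 TPM in Emg1 cKO and 41.0, 43.2 and 39.5 TPM in Vangl2 Lp/Lp, against 28.6, 29.9 and 25.3 TPM in wild type (difference, adjusted p = 4.9e-06). Rpsa-ps10, a ribosomal protein pseudogene, had 679, 746 and 848 TPM in Emg1 cKO and 111 to 129 TPM in the other mutants, against 144, 134 and 140 TPM in wild type (adjusted p = 2.7e-12). Gm9347, a gene model, had 1.51 to 2.71 TPM in beta-catenin cKO, 13.9 to 16.4 TPM in Emg1 cKO and 18.8 to 23.5 TPM in Vangl2 Lp/Lp, against 8.73, 3.38 and 5.24 TPM in wild type (adjusted p = 2e-05). Gm13337, another gene model, had 0.129, 0 and 0 TPM in beta-catenin cKO and 4.92 to 8.72 TPM in the other mutants, against 2.58, 1.26 and 0.825 TPM in wild type (adjusted p = 2e-05). The mutants lie on both sides of wild type in each of the 4 genes.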

How the data were processed

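RNA of 12 pools was sequenced. Reads were trimmed with Trimmomatic 0.39 and aligned with STAR 2.7.10b to mm10, per the submitters' processing notes; for the counting tool, strand setting and annotation release the sources used here name none. The table as deposited gave log2 TPM, with values of 1 TPM or less set to 0 by the authors, and expected counts with fractions (39.4% not whole), deposited without normalisation. TPM of 1 or less were rebuilt here from the counts, whose ratio to the TPM above 1 is a gene factor times a library factor. Of 24 value columns 0 were left unmapped, and 0 genes of the mitochondrial chromosome were in the table.

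Counts were rounded and fitted with edgeR 4.0.16 in R 4.3.3 (TMM, a mean per genotype, quasi-likelihood F test, 8 residual degrees of freedom; limma 3.58.1 and DESeq2 1.42.0 for alternatives). The mutant mean is the mean of the 3 genotype coefficients. Adjusted p values are Benjamini-Hochberg over the 17848 genes tested, and a call is an adjusted p under 0.05. They measure the spread between pooled libraries. Errors after ± are SE for log2 fold changes and SD for TPM. Scarce genes rest on fewer reads and are measured less precisely.

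The members and the gene lists were chosen with earlier results of these data known. Genes were named by a rule: the altered genes with Grhl2 and Grhl3, the 12 largest and 6 most abundant alike genes per direction (gene models and pseudogene symbols left out), up to 3 alike members of each list (or 2 called), and 4 genes with opposite calls. Others are said to be chosen after values were seen. A few genes that the rule names are not reported here. On simulated data of 17848 genes the fit called alike 75 of 100 genes changed 1.5-fold, 94 of 100 changed 2-fold and 0 of 100 changed 2-fold in 1 genotype, and 0 of 17548 unchanged genes. The mutant mean, however, called 68 of the 100 genes changed in 1 genotype, so a call in the mean can come from a single genotype. The changed genes were drawn from those with over 100 expected reads, so these shares do not hold for scarce genes. Each simulated gene was drawn on its own around the wild-type mean. A difference in make-up or stage shared by the libraries of a group was not simulated, so these shares do not cover it. Alternatives are given in the closing section.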

Additional observations from a re-analysis of the deposited data

Results flagged for a closer look

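A single mutant library stood apart from the other 8 in 4 of the 121 genes named, by a gap to its nearest neighbour, divided by the whole range, above Dixon's critical value; chance alone flags about 1 in 20 groups. The gap ratio was 0.534 for Vangl2 (Emg1 cKO replicate 3, 91.3 TPM), 0.566 for Erbb4 (Vangl2 Lp/Lp replicate 1, 2.29 TPM), 0.541 for Zfp968 (beta-catenin cKO replicate 3, 1.78 TPM) and 0.585 for Zfp967 (beta-catenin cKO replicate 3, 2.28 TPM).

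For 32 of the named genes the change against wild type differed among the 3 mutants by edgeR's quasi-likelihood test. Among ectodermal and border genes the adjusted p was 4.7e-06 for Tfap2c, 0.00021 for Wnt6, 0.00027 for Trp63, 0.004 for Msx1, 0.0084 for Perp, 0.0084 for Sfn, 0.0088 for Ngfr, 0.024 for Grhl3, 0.024 for Tnfrsf19, 0.03 for Sp6, 0.032 for Crabp2 and 0.034 for Msx2. Among mesodermal and neural genes it was 4.9e-06 for Olig3, 6.2e-05 for Hand2, 0.00077 for Lhx9, 0.0033 for Osr2, 0.03 for Pax1, 0.032 for Erbb4 and 0.036 for Col2a1. Among genes of growth and blood it was 0.00035 for Emg1, 0.0026 for Lin28a, 0.0027 for Slc2a3, 0.021 for Hba-x, 0.026 for Hbb-bh1, 0.026 for Msmo1, 0.029 for Mthfd1 and 0.041 for Slc2a1. Of the remaining genes, Rpsa-ps10 had 2.7e-12, Gm9347 2e-05, Gm13337 2e-05, Rps3a3 0.011 and Ifi204 0.028.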

How the results depend on the processing

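With limma on log2(TPM + 1) the mutant mean had 3244 higher and 586 lower genes, and 53 genes were alike lower; library totals alone gave 1188 lower and 152 alike lower. Without the Emg1 cKO genotype 1303 were lower. With no filter on low values 514 were alike lower, 2277 differed among mutants and 2624 were called in Vangl2 Lp/Lp. DESeq2 gave 1807 differences, and library weights gave 2656 and 3916 calls in beta-catenin cKO. Requiring a 1.5-fold change in each genotype left 51 alike lower, and requiring no overlap 192. Of the 568 and 312 alike genes, 455 and 51 were shared with log2(TPM + 1), and 564 and 310 with DESeq2. The cause of these shifts was not tested.

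Leaving out 1 library gave 1324 to 2032 higher and 1214 to 2083 lower genes, 366 to 589 alike higher, 112 to 406 alike lower and 657 to 1428 differences. Calls ranged from 1436 to 2863 in beta-catenin cKO, 2610 to 4092 in Emg1 cKO and 719 to 1688 in Vangl2 Lp/Lp. With the replicate block there were 1850 higher, 1793 lower, 525 alike higher, 229 alike lower and 1066 differences. Replicate numbers did not pair mutants with wild type: deviations correlated at -0.265 to 0.056 over 9 same-number pairs and -0.107 to 0.296 over 18 others. Among mutants they correlated at -0.038 to 0.358 over 9 same-number pairs, 6 of them over 0.1, and -0.367 to 0.263 over 18 others; all 3 pairs of beta-catenin cKO with Vangl2 Lp/Lp were over 0.1 (0.131 to 0.222). A library correlated best with its own number in 13 of 36 cases.

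Of 117 named genes called in the mean, 95 kept that call under every alternative in which they were tested, and 22 lost it under at least 1. Genes absent from a fit, as scarce ones are with TPM above 5, were not checked in it. Whether a gene stayed alike was not part of this count. Signs reversed for Ctnnb1 (0.003 with TPM above 5, 0.026 with library totals, 0.087 with log2(TPM + 1), 0.017 without the beta-catenin cKO genotype), Hbb-bs (-0.152 without the Emg1 cKO genotype, -0.115 to 0.327 leaving out 1 library), Rpsa-ps10 (-0.310 without the Emg1 cKO genotype), Olig3 (0.147 without the beta-catenin cKO genotype), Gm9347 (-0.168 without the Vangl2 Lp/Lp genotype) and Gm13337 (1.289 with the mutants as 1 group, 0.568 with log2(TPM + 1), 1.854 without the beta-catenin cKO genotype, -1.371 to 0.059 leaving out 1 library). Genes near 1 TPM rest on few reads, and each genotype rests on 3 pooled libraries.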

Other observations

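In 4 further lists of the caudal embryo some genes were called in the mutant mean, against 21.9% of all genes tested (10.8% higher and 11.1% lower). Of 23 genes of neuromesodermal and tail bud progenitors 5 were lower in the mutant mean by edgeR (Fgf8, Cyp26a1, Cdx1, Cdx4 and Lin28a) and 1 was higher (Gdf11). The list's median was -0.28 in beta-catenin cKO, -0.37 in Emg1 cKO and 0.25 in Vangl2 Lp/Lp, and a difference among the mutants was called for 10 of the 23. The lower count was 3 without any 1 wild-type library or the Emg1 cKO genotype, 2 without the beta-catenin cKO genotype, 1 with the 9 mutant libraries as 1 group and 8 without the Vangl2 Lp/Lp genotype. The higher count was 2 without Emg1 cKO replicate 1, by DESeq2 and with library totals, and 0 without wild type replicates 1 or 3.

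Of 28 neural crest and plate border genes 4 were higher (Zic1, Sox9, Ednrb and Ngfr) and 5 lower (among them Msx1, Msx2, Sox10 and Tfap2b), and 18 differed among the mutants. Lower genes numbered 2 with the mutants as 1 group, 3 without the beta-catenin cKO genotype and 8 without the Vangl2 Lp/Lp genotype, and the higher count 7 without the beta-catenin cKO genotype. The median was -0.25 in beta-catenin cKO, -0.04 in Emg1 cKO and 0.26 in Vangl2 Lp/Lp. Of 18 WNT ligands 7 were lower (Wnt2, Wnt3, Wnt4, Wnt6, Wnt8a, Wnt10a and Wnt10b), and 1 was higher (Wnt7b). There were 4 lower without wild type replicate 2, 3 with limma on log2(TPM + 1), and 2 without the beta-catenin cKO genotype or with the mutants as 1 group; 7 were lower in beta-catenin cKO, 6 in Emg1 cKO and 2 in Vangl2 Lp/Lp. Of 13 retinoic acid genes 3 were higher (among them Cyp26b1 and Rara) and 4 lower (Cyp26a1, Rarb, Crabp1 and Crabp2), with 1 higher without wild type replicate 1 and 0 without replicate 2 or the Emg1 cKO genotype. With the mutants as 1 group 0 were higher and 1 lower, and limma on log2(TPM + 1) gave 5 and 2.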
